A study of Homo sapiens with 6 samples.

Results

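Nuclear genes for subunits of the respiratory chain and ATP synthase were followed in HS578T cultures, 3 with an EP300 vector and 3 with the vector alone. HS578T is a human breast carcinoma line, and EP300 encodes a lysine acetyltransferase that co-activates transcription. Both kinds of culture were stable G418-selected transfectants kept as pools of clones in low-glucose medium with serum, insulin and G418, the EP300 group with pcDNA 3 carrying EP300 cDNA and the control group with pcDNA 3 alone. Each group comprised 3 independent cultures, hybridised to 1 Affymetrix whole-transcript array each. The labels do not say whether the cultures of a group came from 1 transfection, so p-values measure only the spread between these cultures. Members were taken by gene symbol (NDUFA, NDUFB, NDUFC, NDUFS and NDUFV, SDHA to SDHD, UQCR, COX4I to COX8 and ATP5, without assembly factors and pseudogenes), which gave 77 genes with 1 probe set each, among 21448 probe sets in all. They comprised 32 genes of complex I, 3 of complex II, 8 of complex III, 17 of complex IV and 17 of complex V. COX7A2L (counted in complex IV) and ATP5IF1 (counted in complex V) were taken by their prefixes, and an alternative membership left them out as non-subunits. A further 2 symbols that begin with these prefixes, the readthrough ATP5MF-PTCD1 and the divergent transcript NDUFV1-DT, do not name subunit genes of their own and were set apart.

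The respiratory chain of the inner mitochondrial membrane passes electrons from NADH (complex I) and succinate (complex II) through coenzyme Q, complex III and cytochrome c to oxygen at complex IV. Complexes I, III and IV pump protons, and complex V, the ATP synthase, uses the returning protons to make ATP. Complex II is wholly encoded in the nucleus, whereas the other complexes join nuclear subunits to a few made from mitochondrial DNA, so that output of both genomes has to be matched. Transcription factors known for driving many of the nuclear genes include NRF1, the ETS factor GABPA and YY1, with PPARGC1A as a co-activator.

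Values are log2 signals, and a difference is EP300 minus control on that scale. The array medians lay between 4.456 and 4.497 and the lower quartiles between 3.468 and 3.495. Pairs of arrays correlated at 0.9784 to 0.9802 within the EP300 group, at 0.9786 to 0.9807 within the control group and at 0.977 to 0.9807 between groups (Pearson, over all probe sets). The level of EP300 itself was not analysed here, so the higher EP300 level that the labels imply for the EP300 group was not checked, and each difference rests on the labels. All 6 mesenchymal markers examined (levels from 10.14 to 19.84) lay above the array medians and 5 of 6 epithelial markers below them. Of the few markers of other cell types, 2 of 3 leukocyte, 2 of 3 endothelial and 2 of 3 muscle markers lay below the medians. The members were mostly well expressed, with 71 of 77 above the median of the arrays and none at the ceiling of the values (19.93).

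No member passed the test. At an adjusted p of 0.05, 0 of the 77 genes were called by limma, beside 0.0% of all probe sets. The smallest adjusted p among members was 0.74 (0.581 to 0.866 over the alternative settings). At an unadjusted p below 0.05 there were 4 members higher in EP300 cultures (NDUFB3, NDUFS5, COX7B and NDUFB1), where 3.45% of all probe sets were, and 1 lower (NDUFV2), where 3.07% were. In both directions together that is 6.49% of the members, beside 6.52% of all probe sets. The 95% interval of the difference lay within 1 log2 unit of 0, that is within a 2-fold change, for 69 members (89.6%), beside 77.3% of all probe sets. No member's interval reached beyond -1.27 or 1.23. In cultures measured in bulk, fewer cells with a transcript and less of it per cell cannot be told apart.

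The small differences ran more often upward than over the whole array. A positive difference was seen for 52 of 77 members (67.5%), against 50.2% of all probe sets and 51.8% of those above the median level. A negative one was seen for the other 25, and for 49.8% of all probe sets. The median was 0.12 over the members and 0.001 over all probe sets. The members' median deviation from their own mean over the 6 arrays was 0.006, 0.122 and 0.008 on EP300 replicates 1, 2 and 3, against -0.015, -0.044 and -0.046 on control replicates 1, 2 and 3. All 3 EP300 arrays were thus above the 3 control arrays, by a gap that was small for EP300 replicates 1 and 3 and wide for replicate 2. Without EP300 replicate 2 the median difference was 0.064 and 44 members were higher. The count was also 44 without control replicate 3 and 48 without control replicate 2, and it lay between 51 and 55 without each other array. The median was also lower by more than 1.5 times without control replicate 1 (0.07) and without control replicate 3 (0.073). Members are not independent of each other, and no test was made on their median.

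**Figure D1:**
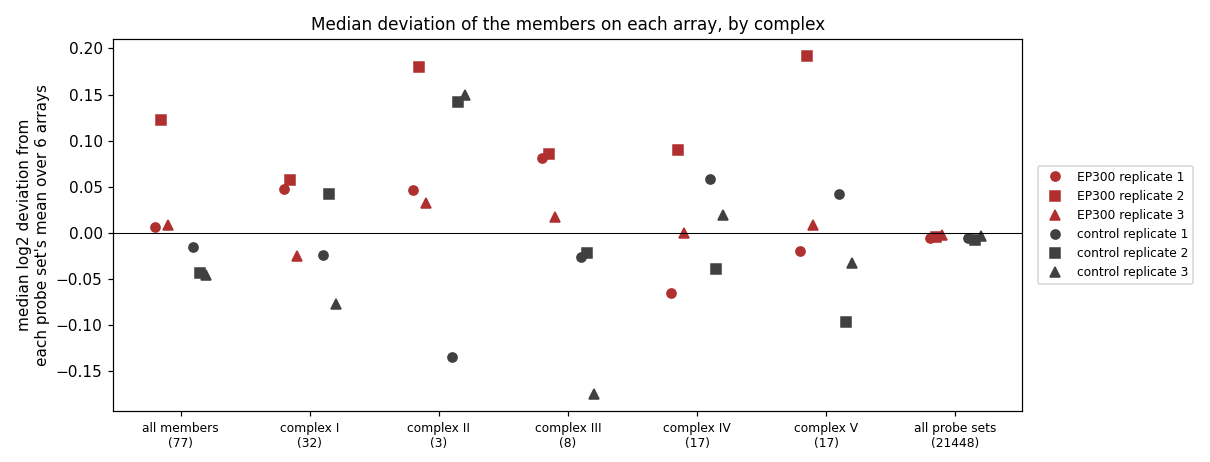
Median over the members of each array's log2 deviation from the probe set's mean over 6 arrays, for all 77 members, each complex and all probe sets (number of genes or probe sets in brackets). Red marks are EP300 arrays and dark marks control arrays, with a shape for each replicate. EP300 replicate 2 stands at 0.122 over all members and at 0.192 in complex V, while over all probe sets the arrays lie between -0.008 and -0.002.

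The groups did not overlap for 13 members (16.9%), beside 12.2% of all probe sets. In 8 the EP300 arrays were all above the control arrays (NDUFB3, NDUFS5, COX7B, NDUFB1, NDUFS6, ATP5MC2, NDUFA6 and NDUFA11), which is 10.4% of the members beside 6.3% of all probe sets. In 5 they were all below (NDUFV1, NDUFV2, NDUFV3, SDHD and ATP5F1A), beside 5.91% of all probe sets. For each of the 13 the exact two-sided permutation p is 0.1, the smallest that 3 arrays against 3 allow. NDUFV3, NDUFS6, NDUFA6 and NDUFA11 are named after their values were seen.

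**Figure D2:**
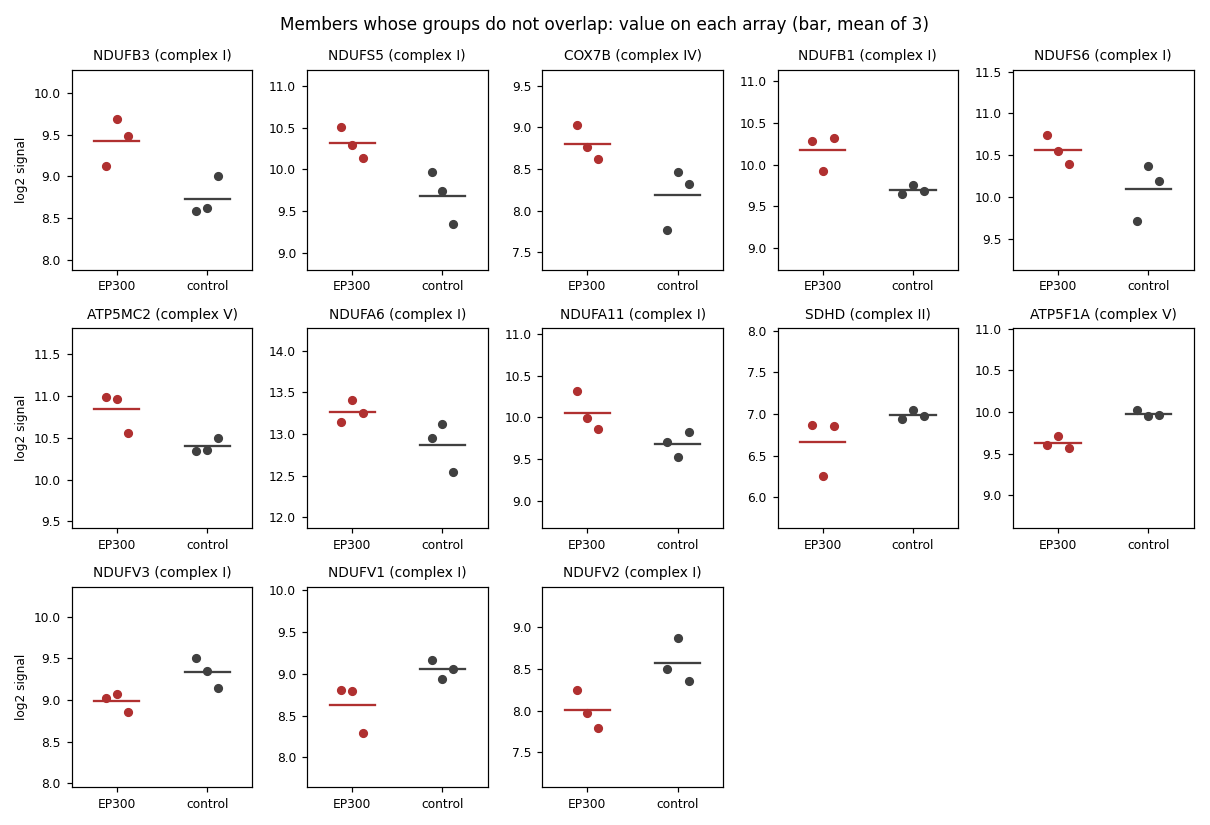
Log2 signal on each array for the 13 members whose groups do not overlap, EP300 cultures (red) left of control cultures (dark), with the mean of 3 as a bar; each panel spans the same range of log2 signal. The largest gaps between means are 0.70 for NDUFB3 upward and -0.57 for NDUFV2 downward.

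Complex I, the NADH dehydrogenase, held 9 of the 13, which is 28.1% of its genes, beside 12.2% of all probe sets. Its peripheral arm oxidises NADH and its membrane arm pumps protons. Of its 32 genes, 20 were higher and 12 lower, with a median of 0.08, which was 0.044 without EP300 replicate 1, 0.036 without control replicate 2 and 0.031 with quantile normalization. At an unadjusted p below 0.05 there were 3 higher and 1 lower, 12.5% of its genes beside 6.52% of all probe sets. The differences spanned -0.58 to 0.70, and by symbol prefix, a grouping made after the values were seen, they did not run alike.

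The genes of lowest median were those of the flavoprotein part of the peripheral arm, where electrons enter. NDUFV1, which binds NADH and the flavin, read 8.80, 8.79 and 8.29 in EP300 cultures, against 9.17, 8.94 and 9.06 in control cultures. Its difference was -0.43 ± 0.23 SE (1.35-fold lower, limma adjusted p = 0.792), and -0.27 without EP300 replicate 3. NDUFV2, the iron-sulfur subunit beside it, read 8.25, 7.97 and 7.79 in EP300 cultures, against 8.50, 8.87 and 8.35 in control cultures. It differed by -0.57 ± 0.23 SE, a 1.49-fold difference with a 95% interval from -1.1 to -0.05 (limma unadjusted p = 0.0358, adjusted p = 0.748). NDUFV3, an accessory subunit of the same part, read 9.02, 9.07 and 8.86 in EP300 cultures, against 9.51, 9.35 and 9.14 in control cultures, a difference of -0.36 ± 0.21 SE (limma adjusted p = 0.82). In all 3 genes each EP300 array was below each control array. EP300 replicate 3 was the lowest array for each of them, and without it the median of the 3 differences was -0.293 in place of -0.432. With single arrays left out the median stayed between -0.519 and -0.293.

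Most NDUFB genes, which encode accessory subunits of the membrane arm, had positive differences. NDUFB3, a small membrane-spanning subunit, had the largest positive difference of all members. It read 9.12, 9.69 and 9.48 in EP300 cultures, against 8.58, 8.62 and 9.0 in control cultures, a difference of 0.70 ± 0.24 SE (1.62-fold, 95% interval 0.17 to 1.23, limma unadjusted p = 0.0153, adjusted p = 0.74). NDUFB1, another small subunit of that arm, read 10.28, 9.93 and 10.32 in EP300 cultures, against 9.65, 9.76 and 9.68 in control cultures. Its control cultures had an SD of 0.06, and the difference was 0.48 ± 0.21 SE (limma adjusted p = 0.765). Of the 11 NDUFB genes 9 were higher and 2 lower (NDUFB8 at -0.02 and NDUFB11 at -0.08), with a median of 0.14 (0.117 to 0.196 with single arrays left out).

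Among the NDUFS genes, NDUFS5, which lies on the intermembrane side of the membrane arm, read 10.51, 10.29 and 10.14 in EP300 cultures, against 9.97, 9.74 and 9.34 in control cultures. The difference was 0.63 ± 0.24 SE (1.55-fold, limma unadjusted p = 0.0248, adjusted p = 0.748). NDUFS6, a zinc-binding accessory subunit of the peripheral arm, read 10.74, 10.55 and 10.39 in EP300 cultures, against 9.71, 10.37 and 10.19 in control cultures. Its difference of 0.47 was 0.28 without control replicate 1, the lowest array. Of the 5 NDUFS genes 3 were higher, with a median of 0.19 that ran from 0.035 without control replicate 2 to 0.397 without control replicate 3.

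The 12 genes whose symbols begin with NDUFA, NDUFAB1 included, were split, with 7 higher, 5 lower and a median of 0.01, which was below 0 without EP300 replicate 1 and with quantile normalization. NDUFA6, an accessory subunit of the LYR family in the peripheral arm, read 13.15, 13.41 and 13.25 in EP300 cultures, against 12.95, 13.12 and 12.54 in control cultures (difference 0.40 ± 0.23 SE, limma adjusted p = 0.812), and was at 0.24 without control replicate 3. NDUFA11, of the membrane arm, read 10.32, 9.99 and 9.86 in EP300 cultures, against 9.70, 9.53 and 9.82 in control cultures (0.37 ± 0.22 SE, limma adjusted p = 0.82), and was at 0.24 without EP300 replicate 1. NDUFA8, an accessory subunit on the intermembrane side, had the most negative difference of all members, -0.58 ± 0.31 SE. It read 6.02, 5.73 and 4.84 in EP300 cultures, against 6.0, 6.31 and 6.03 in control cultures, so the groups overlapped and EP300 replicate 3 stood apart. Without that array the difference was -0.24.

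**Figure D3:**
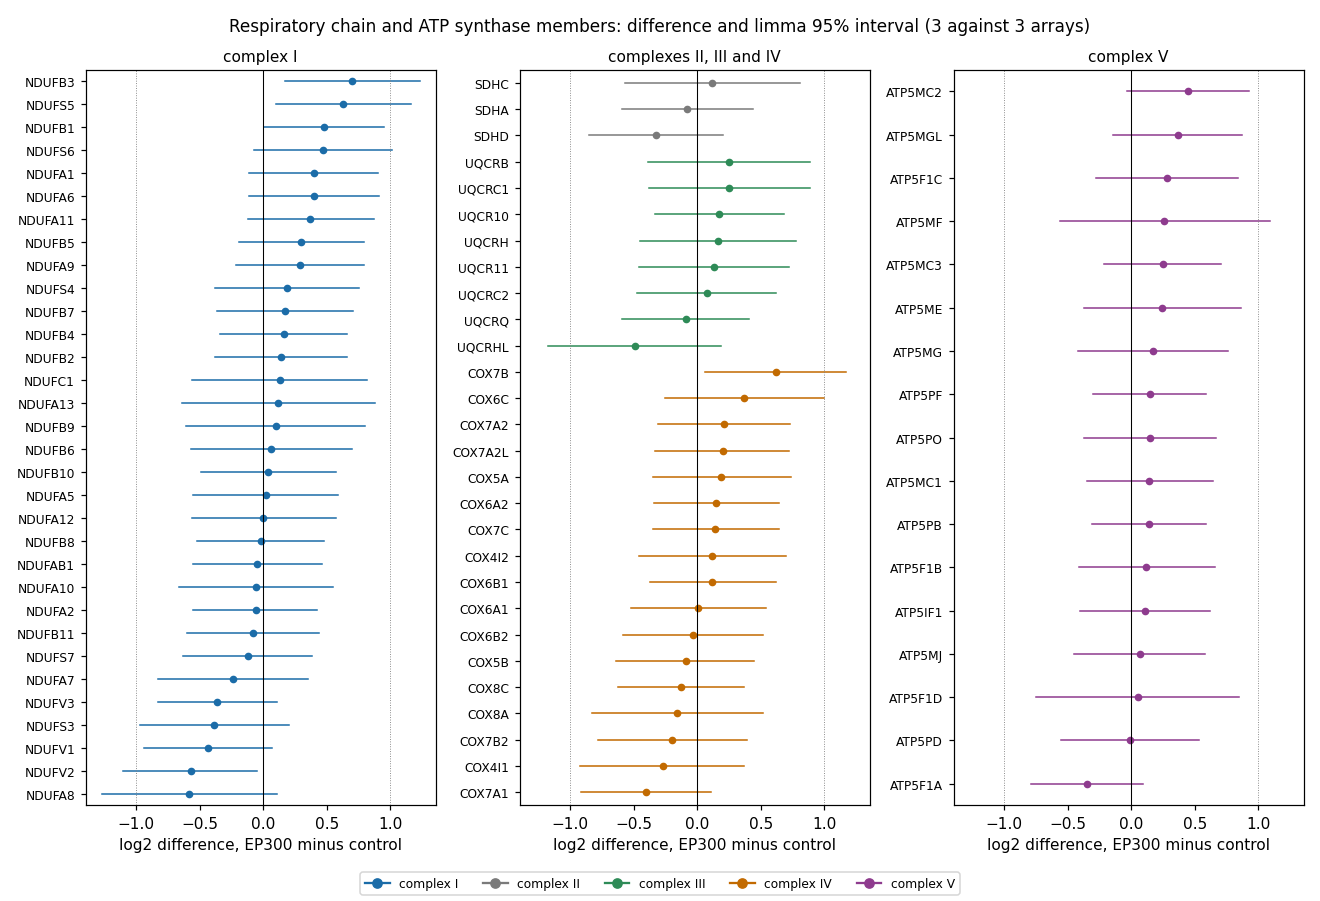
Difference in log2 signal, EP300 minus control, with limma's 95% interval, for the 77 members by complex (colours), sorted within each complex; dotted lines mark 1 log2 unit. Most intervals cross 0, and 5 lie to one side of it: NDUFB3, NDUFS5, NDUFB1 and COX7B above, NDUFV2 below.

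The sequences before the transcription start are shown for the 3 flavoprotein genes, which read lower together, and for NDUFB3, whose difference was the highest. They are the 250 bases before the RefSeq start (GRCh38.p14), 5′ to 3′ on the gene's strand, for NDUFV1 from chr11:67606686-67606935 on the plus strand, NDUFV2 from chr18:9102449-9102698 on the plus strand, NDUFV3 from chr21:42893059-42893308 on the plus strand and NDUFB3 from chr2:201071751-201072000 on the plus strand. Capitals mark matches on either strand to the motifs searched, which were CGCATGCG for NRF1, CCGGAAG for ETS factors, AAGATGGCG for YY1, GGGCGG for SP1, CCAAT for NFY and ACGTG for HIF.
NDUFV1: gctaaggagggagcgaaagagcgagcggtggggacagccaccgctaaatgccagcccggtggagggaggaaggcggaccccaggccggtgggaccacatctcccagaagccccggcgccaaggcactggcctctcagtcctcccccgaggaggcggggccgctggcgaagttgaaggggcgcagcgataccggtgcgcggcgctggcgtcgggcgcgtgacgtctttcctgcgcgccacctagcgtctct
NDUFV2: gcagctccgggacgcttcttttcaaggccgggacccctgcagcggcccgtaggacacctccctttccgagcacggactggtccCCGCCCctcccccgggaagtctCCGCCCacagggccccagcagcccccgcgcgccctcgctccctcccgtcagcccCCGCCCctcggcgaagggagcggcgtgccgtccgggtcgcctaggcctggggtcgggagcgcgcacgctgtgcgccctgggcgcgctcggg
NDUFV3: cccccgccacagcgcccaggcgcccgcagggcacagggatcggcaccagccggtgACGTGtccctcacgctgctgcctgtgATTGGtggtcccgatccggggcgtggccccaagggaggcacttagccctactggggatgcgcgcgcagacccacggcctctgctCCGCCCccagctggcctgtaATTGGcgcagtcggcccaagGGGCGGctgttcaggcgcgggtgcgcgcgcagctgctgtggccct
NDUFB3: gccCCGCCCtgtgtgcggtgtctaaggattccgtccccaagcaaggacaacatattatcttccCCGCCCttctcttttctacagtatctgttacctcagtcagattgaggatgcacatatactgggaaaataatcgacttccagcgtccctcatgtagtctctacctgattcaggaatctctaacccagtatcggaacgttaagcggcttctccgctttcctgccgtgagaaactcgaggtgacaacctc
NDUFV2 holds the SP1 letters at 3 places, which begin 167, 145 and 91 bases before the start, and NDUFB3 at 2 places, 247 and 187 bases before it. NDUFV3 holds SP1 letters 85 and 45 bases before the start, NFY letters at 169 and 65, and HIF letters at 195. No capitals stand in the NDUFV1 stretch, which says only that these letters are not in this window. The lower 3 genes thus share none of the 6 motifs across all of them in this stretch.

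Complex II, succinate dehydrogenase, was measured through 3 genes, 1 higher and 2 lower, with a median of -0.08 that was 0.09 without EP300 replicate 1. SDHD, a membrane anchor subunit, read 6.87, 6.26 and 6.86 in EP300 cultures, against 6.94, 7.05 and 6.98 in control cultures. The groups did not overlap, but replicates 1 and 3 of the EP300 group lay close under the control arrays, and the difference of -0.32 ± 0.23 SE (limma adjusted p = 0.864) was -0.12 without EP300 replicate 2. SDHA, the flavoprotein subunit, averaged 9.19 ± 0.30 in EP300 cultures and 9.27 ± 0.15 in control cultures (SD, n = 3 each). SDHC, the other anchor measured, averaged 5.60 ± 0.32 in EP300 cultures and 5.48 ± 0.55 in control cultures. Signal from close copies of SDHA in the genome could not be set apart.

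Complex III, which passes electrons from coenzyme Q to cytochrome c, had 6 of 8 UQCR genes higher and 2 lower. Their median was 0.15, which was 0.044 without EP300 replicate 2, 0.066 without EP300 replicate 1 and 0.069 without control replicate 3. None of the 8 had an unadjusted p below 0.05 and all groups overlapped. CYC1, the cytochrome c1 gene of this complex, has another prefix and is not among the 8. It is counted below with the electron carriers and differed by -0.17 ± 0.22 SE. UQCRC1, a core protein, read 7.49, 8.56 and 8.12 in EP300 cultures, against 7.95, 7.82 and 7.63 in control cultures, with EP300 replicate 2 the highest and replicate 1 the lowest of the 6. UQCRB, a small subunit near the coenzyme Q site, read 11.86, 10.83 and 11.66 in EP300 cultures, against 11.25, 11.33 and 11.02 in control cultures, where EP300 replicate 2 was instead the lowest. These 2 genes had differences of 0.25 each, with errors of 0.28 and 0.29 (SE), so neither exceeded the spread between cultures. They were 0.0 for UQCRC1 without EP300 replicate 2 and 0.04 for UQCRB without EP300 replicate 1. UQCR10 and UQCRQ, further small subunits, differed by 0.17 ± 0.23 and -0.09 ± 0.22 SE, and UQCR10 was at 0.01 without control replicate 1. UQCRHL, a retrocopy of the hinge protein gene UQCRH, averaged 3.98 ± 0.22 in EP300 cultures and 4.47 ± 0.59 in control cultures (SD, n = 3 each), and its difference of -0.49 was -0.17 without control replicate 2. Its probe set can take up signal of UQCRH, so its value is uncertain.

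Complex IV, cytochrome c oxidase, carries nuclear subunits that exist as common and tissue-restricted isoforms. Of its 17 genes 10 were higher and 7 lower, with a median of 0.12 (-0.031 without EP300 replicate 2, 0.071 without EP300 replicate 3, 0.03 without control replicate 1 and 0.074 without control replicate 2). COX7B, a small membrane-spanning subunit, was the 1 gene at an unadjusted p below 0.05. It read 9.03, 8.76 and 8.62 in EP300 cultures, against 7.77, 8.46 and 8.32 in control cultures. The difference was 0.62 ± 0.25 SE (1.54-fold, 95% interval 0.06 to 1.17, limma unadjusted p = 0.0322, adjusted p = 0.748). It was 0.41 without control replicate 1, the lowest array. COX6C, another small subunit, read 9.90, 10.93 and 10.37 in EP300 cultures, against 9.85, 10.06 and 10.17 in control cultures, and its difference of 0.37 was 0.11 without EP300 replicate 2. COX5A, which forms part of the matrix side, differed by 0.19 ± 0.24 SE.

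COX7B apart, no gene of the isoform pairs separated the groups. The common isoform COX4I1 read 8.50, 8.22 and 8.38 in EP300 cultures, against 9.25, 8.51 and 8.16 in control cultures, and its difference of -0.27 ± 0.29 SE was 0.03 without control replicate 1. COX4I2, the isoform known from lung and from low oxygen, differed by 0.12 ± 0.26 SE (95% interval -0.46 to 0.70). COX7A1, the isoform of heart and skeletal muscle, read 4.66, 5.08 and 4.66 in EP300 cultures, against 5.35, 4.96 and 5.29 in control cultures (difference -0.40 ± 0.23 SE, limma adjusted p = 0.813), while the common COX7A2 differed by 0.21 ± 0.23 SE (0.04 without control replicate 1 and 0.39 without control replicate 3). For the common isoforms COX6A1, COX6B1 and COX8A the differences were 0.01, 0.12 and -0.16, and for their restricted counterparts COX6A2, COX6B2 and COX8C they were 0.15, -0.03 and -0.13. COX7B2, the restricted counterpart of COX7B, differed by -0.20 ± 0.26 SE. COX4I2, COX7B2 and COX8C lay below the array medians and COX6B2 below the lower quartiles, where the background is unknown. The 6 restricted isoforms had a median of -0.08, which was 0.019 without EP300 replicate 1 and 0.012 without control replicate 1. The other 11 genes had one of 0.14, which was 0.045 without control replicate 1.

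Complex V, the ATP synthase, had 15 of 17 genes above 0, 2 below and a median of 0.15. None had an unadjusted p below 0.05. Its median deviation by array was -0.02, 0.192 and 0.008 on EP300 replicates 1, 2 and 3, against 0.042, -0.097 and -0.033 on control replicates 1, 2 and 3, so the array values of the groups overlapped. The median difference lay between 0.092, without EP300 replicate 2, and 0.218 with single arrays left out.

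In the F1 part, where ATP is made, 3 of the 4 genes ATP5F1A to ATP5F1D were above 0, with a median of 0.08. With single arrays left out it ran from -0.179 to 0.29, and it was below 0 without EP300 replicate 2 and without control replicate 2. ATP5F1A, encoding alpha, read 9.60, 9.71 and 9.57 in EP300 cultures, against 10.02, 9.95 and 9.96 in control cultures. The groups were tight and did not overlap, with SDs of 0.08 in EP300 and 0.04 in control cultures, and the difference was -0.35 ± 0.20 SE (1.27-fold lower, 95% interval -0.79 to 0.09, limma adjusted p = 0.81). ATP5F1B, encoding beta, read 13.80, 14.27 and 13.63 in EP300 cultures, against 13.67, 13.68 and 13.98 in control cultures, a difference of 0.12 ± 0.24 SE. Whether the 2 genes differ from each other was not tested.

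Subunit c, which forms the rotating ring in the membrane, is encoded by 3 genes with the same mature protein, and all 3 were above 0. ATP5MC2 read 10.99, 10.97 and 10.56 in EP300 cultures, against 10.34, 10.35 and 10.50 in control cultures. Its difference was 0.45 ± 0.22 SE (1.36-fold, 95% interval -0.03 to 0.93, limma adjusted p = 0.787), with every EP300 array above every control array. ATP5MC3 read 7.68, 7.68 and 7.48 in EP300 cultures, against 7.21, 7.39 and 7.49 in control cultures (0.25 ± 0.21 SE). ATP5MC1 differed by 0.14 ± 0.22 SE (0.04 without control replicate 3). The probe sets of these 3 genes can share signal. All 5 genes of the small membrane subunits were above 0 as well, with a median of 0.24 (0.088 without EP300 replicate 2 and 0.066 without control replicate 3). They included ATP5MGL, a copy of the subunit g gene, at 0.37 ± 0.23 SE (0.22 without EP300 replicate 3) and a level below the array medians. The peripheral stalk had 3 of 4 genes above 0 and a median of 0.14 (0.063 with quantile normalization, 0.084 without control replicate 1 and 0.083 without control replicate 2), with ATP5PD at -0.01 ± 0.24 SE.

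NRF1, YY1 and ETS letters, which the choice of members did not use, each stood in a minority of the members' promoters. RefSeq promoters of 300 bases (250 before the start and 50 after it) were found for 63 of the 77 genes. The NRF1 core CGCATGCG stood in 10 of them (15.9%), in 2.95% of the 14250 promoters of genes on the array and in 2.19% of all 27305 promoters. The YY1 letters AAGATGGCG stood in 11.1% of the members' promoters and 2.79% of those on the array, and the ETS letters CCGGAAG in 27.0% and 14.3%. For SP1 (58.7% and 59.5%), NFY (34.9% and 36.4%) and HIF (27.0% and 23.6%) the shares lay close together. These are shares of letters, not of bound sites, and no test was made. The NRF1 core stood in 17.5% of the 40 members with a positive difference (7 genes) and in 13.0% of the 23 with a negative one (3 genes). For YY1, NFY and HIF the share was also higher among the 40. For ETS (10 of the 40 and 7 of the 23) and SP1 (52.5% and 69.6%) it was higher among the 23. The motifs thus did not all lean the same way. By complex the NRF1 core stood in 4 of 29 promoters for complex I and 1 of 2 for complex II. It stood in 0 of 6 for complex III, 1 of 14 for complex IV and 4 of 12 for complex V. The ETS letters stood in 4, 1, 3, 5 and 4 promoters of complexes I to V. For complex I that is 13.8%, close to the array's 14.3%. The YY1 letters stood in 5, 0, 1, 0 and 1 promoters of complexes I to V.

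**Figure D4:**
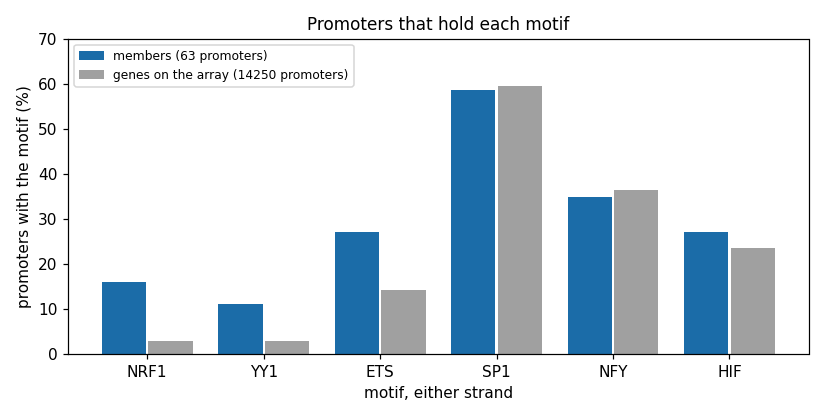
Share of RefSeq promoters (300 bases) that hold each motif on either strand, for the 63 members with a promoter (blue) and the 14250 genes on the array with one (grey). The NRF1, YY1 and ETS bars are taller for the members (15.9%, 11.1% and 27.0%) than for the array (2.95%, 2.79% and 14.3%), and the others are close.

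NRF1 cores of 9 members that lie before the start are shown with up to 20 bases on each side, to let the surrounding letters be compared. Sequences are 5′ to 3′ on the gene's strand, from RefSeq (GRCh38.p14), with the core in capitals. The genes on the plus strand are NDUFB4 chr3:120596158-120596205, NDUFS6 chr5:1801342-1801389, NDUFS7 chr19:1383813-1383860, SDHD chr11:112086744-112086791, COX6A1 chr12:120437874-120437921, ATP5F1C chr10:7788136-7788176, and those on the minus strand are ATP5MC2 chr12:53676097-53676144, ATP5ME chr4:674326-674373, ATP5PF chr21:25735146-25735193.
NDUFB4: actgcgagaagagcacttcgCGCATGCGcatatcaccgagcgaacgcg
NDUFS6: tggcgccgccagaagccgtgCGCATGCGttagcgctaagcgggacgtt
NDUFS7: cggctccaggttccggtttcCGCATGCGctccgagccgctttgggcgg
SDHD: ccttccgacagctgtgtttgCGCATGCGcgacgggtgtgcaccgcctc
COX6A1: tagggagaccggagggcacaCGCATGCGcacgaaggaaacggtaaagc
ATP5F1C: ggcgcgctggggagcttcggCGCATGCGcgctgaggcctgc
ATP5MC2: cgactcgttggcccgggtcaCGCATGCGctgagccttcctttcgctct
ATP5ME: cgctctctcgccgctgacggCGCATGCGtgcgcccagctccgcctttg
ATP5PF: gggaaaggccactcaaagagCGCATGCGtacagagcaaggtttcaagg
The core lay between 21 bases (ATP5F1C) and 219 bases (COX6A1) before the start. The 9 genes read both ways, from -0.32 for SDHD and -0.12 for NDUFS7 to 0.45 for ATP5MC2 and 0.47 for NDUFS6. NDUFA8, the other gene with the core in its promoter and not shown, differed by -0.58.

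The regulators of these genes were measured as a separate list. Of 18 biogenesis regulators measured (20 listed) 7 were higher and 11 lower, with a median of -0.03. NRF1 itself read 4.84, 5.28 and 5.57 in EP300 cultures, against 4.52, 4.81 and 4.80 in control cultures. The NRF1 difference was 0.52 ± 0.24 SE (limma adjusted p = 0.785), and 0.35 without EP300 replicate 3. GABPA read 6.05, 5.45 and 4.89 in EP300 cultures, against 4.88, 4.71 and 4.80 in control cultures (0.67 ± 0.29 SE, limma unadjusted p = 0.0466, adjusted p = 0.765), and was at 0.37 without EP300 replicate 1. For both genes every EP300 array was above every control array, while GABPA varied widely among EP300 cultures. The lowest EP300 value lay close to the highest control value, 4.84 against 4.81 for NRF1 and 4.89 against 4.88 for GABPA. NRF1 and GABPA were the only 2 of the 18 regulators whose groups did not overlap, 11.1% of the list beside 12.2% of all probe sets. The co-activator gene PPARGC1A averaged 3.20 ± 0.40 in EP300 cultures and 3.76 ± 0.86 in control cultures (SD, n = 3 each), near the lower quartiles, and TWNK, the mitochondrial DNA helicase gene, differed by -0.44 ± 0.32 SE. Without control replicate 2 their differences were -0.11 for PPARGC1A, in place of -0.56, and -0.16 for TWNK.

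Assembly factors build the complexes without staying in them. No gene of any of these lists passed the test. Of 14 factors for complex I, 9 were higher and 5 lower, with a median of 0.11. NDUFAF5, which modifies a core subunit, read 6.18, 6.53 and 6.38 in EP300 cultures, against 5.87, 5.73 and 5.45 in control cultures (0.68 ± 0.22 SE, limma unadjusted p = 0.0118, adjusted p = 0.738). NDUFAF3 read 10.77, 10.74 and 10.55 in EP300 cultures, against 11.27, 11.25 and 10.93 in control cultures (-0.46 ± 0.21 SE). FOXRED1 and ACAD9 differed by 0.39 ± 0.24 and -0.32 ± 0.24 SE. FOXRED1 averaged 4.17 in EP300 cultures and 3.79 in control cultures, below the array medians. Of 30 factors measured for complexes II to V (34 listed), 21 were higher and 9 lower, with a median of 0.10, and 3 were higher and 1 lower at an unadjusted p below 0.05 (13.3%, beside 6.52% of all probe sets). LYRM7, a chaperone of the iron-sulfur subunit of complex III, had the largest difference of the lists. It read 8.97, 8.74 and 9.18 in EP300 cultures, against 7.62, 7.83 and 8.32 in control cultures, a difference of 1.04 ± 0.25 SE (2.05-fold, limma unadjusted p = 0.00211, adjusted p = 0.735). COA6, which helps deliver copper to complex IV, read 8.03, 7.83 and 8.02 in EP300 cultures, against 7.18, 7.17 and 7.43 in control cultures (0.70 ± 0.21 SE). COA7 and SDHAF2 differed by -0.66 ± 0.26 and -0.42 ± 0.23 SE, and COA7 was at -0.43 without control replicate 2.

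Among 17 genes of electron carriers and coenzyme Q synthesis, 9 were higher and 8 lower, with a median of 0.01. At an unadjusted p below 0.05 there were 3 higher, 17.6% of the list beside 3.45% of all probe sets, and 0 lower. PDSS1, which makes the coenzyme Q side chain, read 5.47, 5.44 and 5.92 in EP300 cultures, against 4.41, 5.19 and 4.83 in control cultures (0.80 ± 0.26 SE, limma adjusted p = 0.738). COQ3, a methyltransferase of the same pathway, read 5.06, 4.23 and 4.82 in EP300 cultures, against 3.97, 3.74 and 4.01 in control cultures (0.80 ± 0.26 SE). The COQ3 difference ran from 0.62 to 1.04 with single arrays left out, and its control mean of 3.91 lay below the array medians. COQ7 and CYC1, with overlapping groups, differed by -0.23 ± 0.22 and -0.17 ± 0.22 SE. Of 12 tricarboxylic acid cycle enzymes measured (14 listed) 8 were higher and 4 lower, with a median of 0.06. OGDH and DLST, subunits of the 2-oxoglutarate dehydrogenase complex, differed by -0.59 ± 0.21 and -0.35 ± 0.21 SE. For both, every EP300 array was below every control array, as for 5.91% of all probe sets. The groups of 1 further enzyme of the list were apart the other way, with EP300 above, as for 6.3% of all probe sets. DLD, the subunit shared with other dehydrogenases, differed by 0.36 ± 0.24 SE and SUCLG2 by 0.29 ± 0.29 SE. OGDH read 8.12, 7.72 and 7.75 in EP300 cultures, against 8.46, 8.52 and 8.39 in control cultures (limma unadjusted p = 0.0195, adjusted p = 0.746). Of 9 measured regulators (11 listed) of the complex IV isoforms and of uncoupling, 1 was higher and 8 lower, several of them close to 0. The 9 differences had a median of -0.10 and quartiles of -0.21 and -0.05. The 1 higher gene was HIGD1A, whose protein is induced by low oxygen and binds complex IV. It read 11.28, 11.25 and 11.29 in EP300 cultures, against 10.82, 10.79 and 10.52 in control cultures (0.57 ± 0.20 SE, limma adjusted p = 0.746). EPAS1, a hypoxia-inducible factor, differed by -0.46 ± 0.23 SE (limma adjusted p = 0.791), with overlapping groups. UCP2 lay near or below the arrays' lower quartiles in both groups. The subunits encoded by mitochondrial DNA were not analysed here.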

How the data were processed

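RNA of 6 cultures (3 EP300, 3 control) was measured on whole-transcript arrays labelled with the WT PLUS kit, per the labels' protocols. The authors deposited 1 value per probe set and array, taken here as log2 from the range of the values. Partek 6.6 is named in the submitters' processing notes, while the background correction, the normalization and the build are not stated for these values. No detection calls were used, so background is unknown. Precision is limited by having 3 arrays a group.

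Gene symbols came from the platform annotation (17709 of 21448 probe sets have one), and chromosomes and promoters came from RefSeq (GRCh38.p14). EP300 minus control was fitted over all probe sets in limma 3.58.1 (R 4.3.3; lmFit, then eBayes), with no filter, covariate or block, and Benjamini-Hochberg adjustment over all 21448 at 0.05. The fit was tested on simulated data. Errors are SD over cultures or limma's moderated SE.

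The members and the lists were chosen with earlier results of these data known. Named were, in each complex, the 3 members of smallest p in each direction, members at an unadjusted p below 0.05, core subunits and isoform pairs, and 2 genes in each direction per list, which gave 35 members and 23 others, while 4 members were added after their values were seen. Of the genes fixed by name, 5 are not analysed here. Alternatives were quantile normalization, median centring, probe sets above the median level, a variance trend, a replicate block, other memberships and leaving out each array. Same-numbered arrays of the groups did not deviate together (correlations -0.00153, -0.00528 and -0.00893), so the numbers were not taken as pairs.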

Additional observations from a re-analysis of the deposited data

How the results depend on the processing

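No member was called by limma in any setting, with single arrays left out or otherwise, and 0 was also the count over all probe sets, except for 4 probe sets with a variance trend and robust estimation. Counts of members at an unadjusted p below 0.05 moved, to 7 higher with the variance trend, to 2 higher with the replicate block, to 3 higher with quantile normalization and to between 1 and 4 higher and 0 and 2 lower with single arrays left out, against 4 and 1. The replicate block changed no median and no adjusted call. With single arrays left out, the median difference ran from 0.064 to 0.143 over all members, from 0.036 to 0.107 for complex I, from -0.167 to 0.09 for complex II, from 0.044 to 0.168 for complex III, from -0.031 to 0.105 for complex IV and from 0.092 to 0.218 for complex V. For the lists it ran from 0.043 to 0.158 (complex I assembly), 0.028 to 0.171 (assembly of the others), -0.084 to 0.12 (electron carriers), -0.12 to 0.074 (biogenesis), -0.007 to 0.124 (tricarboxylic acid cycle) and -0.251 to -0.013 (isoform and uncoupling regulators). The tricarboxylic acid cycle median was 0.028 with quantile normalization. Why the values moved was not tested. Of 62 named genes 48 kept their sign in every setting; those that did not, with their range without 1 array, were ATP5F1B (-0.06 to 0.26), ATP5PD (-0.22 to 0.12), COX4I1 (-0.51 to 0.03), COX4I2 (-0.13 to 0.29), COX5A (-0.01 to 0.32), COX6A1 (-0.13 to 0.16), COX6B1 (-0.03 to 0.21), COX6B2 (-0.23 to 0.12), COX7B2 (-0.36 to 0.01), COX8A (-0.50 to 0.03), SDHA (-0.19 to 0.09), SDHC (-0.07 to 0.44), SUCLG2 (-0.02 to 0.55), UQCRQ (-0.21 to 0.05). COX6A1 was at -0.01 with quantile normalization. Averaging probe sets of a gene, and leaving out constant or saturated ones, were not run, since each member had 1 probe set and none was constant or at the ceiling. NDUFA4 could not be moved to complex IV, as it was not analysed here. Without the tissue-restricted isoforms, COX7A2L and ATP5IF1 the median over all members was 0.13, and with the readthrough and divergent transcript, added after seeing the data, it was 0.121.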
